A study of Mus musculus with 6 samples.

Results

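Collagens are the main structural proteins of the extracellular matrix, and the collagen genes analysed here are the protein-coding mouse genes whose symbol has the form Col, a type number, the letter a and a chain number. Of 54446 gene identifiers in the deposited count table, 44 are such genes. They comprise 11 chains of fibrillar collagens, 6 chains of the basement membrane collagen type IV and 27 chains of other types. At least 10 counts in at least 3 libraries were reached by 41 of the 44, and the same number, 10 fibrillar, 6 basement membrane and 25 other, passed the filter on low counts and were tested. Those not tested were Col2a1 and Col10a1, the cartilage collagens, with 26 and 42 counts over all 6 libraries, and Col19a1, which had 0 counts in every library.

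RNA of whole mouse intestine was sequenced in 3 samples of a necrotizing enterocolitis model (NEC) and in 3 control samples, all labelled wild type and taken at 96 h. NEC mice were given 40 µl of 33% Esbilac, a milk replacer, by gavage at intervals of 4 h, and every 12 h they were placed in 99.9% N2 for 100 s and then at 4 °C for 10 min. Control mice stayed with the dam and received neither hypoxia nor cold. The labels do not give the intestinal segment, the strain or the age, and do not say whether a sample is 1 animal or a pool, and p-values here therefore cover sample-to-sample spread only, part of which may be technical. Feeding, hypoxia and cold cannot be told apart in this design.

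Total counts were 97445491, 75673833 and 74912430 in NEC replicates 1 to 3, against 77953991, 69441184 and 106304239 in control replicates 1 to 3. The 8 intestine genes listed, among them Cdx1, Cdx2, Vil1 and Fabp2, were found in every library. Together they took 3.85% to 11.8% of the counts of a library, most of it Apoa4 in each. In CPM (scaled counts, defined below), Apoa4 had 28758 of 38454 in NEC replicate 2, the lowest sum. In control replicate 3, the highest sum, it had 105393 of 118102. Cdx1 had 89.8 to 192 CPM and Cdx2 132 to 245 CPM, so the share and its spread say little of these 2 genes. Sex-linked transcripts differed between libraries. Xist, made from the inactive X chromosome, had 50, 38 and 38 counts in NEC, against 13113, 23917 and 123 in control. Uty, on the Y chromosome, had 1943, 1845 and 620 counts in NEC, against 570, 29 and 2811 in control. Control replicate 1 thus held both kinds of transcript, and control replicate 2 carried mainly Xist. Of the control libraries, replicate 3 is the 1 that resembles NEC in these genes. The part of sex in the values below was not tested. Sample codes in the labels start with AG181017 (NEC replicates 2 and 3, control replicates 1 and 2) or with AG181028 (NEC replicate 1, control replicate 3), and values within each prefix are given for the class medians and for several members.

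A collagen molecule is a triple helix of 3 chains, which are hydroxylated and glycosylated in the endoplasmic reticulum, secreted, trimmed by proteases and crosslinked outside the cell. Fibrillar collagens such as types I and III form the fibres of the submucosa and are made mainly by fibroblasts and smooth muscle cells, while type IV forms the sheet-like network under epithelium, endothelium and muscle. In whole tissue, fewer cells of a type and less RNA per cell cannot be told apart.

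Promoters were compared because some collagen genes share one. RefSeq gave 38 promoter windows for 35 of the 44 genes (GRCm38.p6, 250 bases before to 50 after the start). Col4a1 and Col4a2, the chains of the common type IV molecule, lie head to head on chromosome 8: their windows overlap by 78 bases and the genes themselves by 22. The 3 windows below are those of Col4a1, which faces Col4a2, of Col3a1, the most abundant member, and of Col15a1, the member with the smallest p. Each is written 5′ to 3′ on the strand of its gene. Capitals mark matches, on either strand, to the CCAAT box, to the GC box letters GGGCGG, to the TATA box letters TATAAA, to the AP-1 site letters TGACTCA, and to CAGACA, the letters of a SMAD binding element.
Col4a1 (chr8:11312777-11313076, minus strand): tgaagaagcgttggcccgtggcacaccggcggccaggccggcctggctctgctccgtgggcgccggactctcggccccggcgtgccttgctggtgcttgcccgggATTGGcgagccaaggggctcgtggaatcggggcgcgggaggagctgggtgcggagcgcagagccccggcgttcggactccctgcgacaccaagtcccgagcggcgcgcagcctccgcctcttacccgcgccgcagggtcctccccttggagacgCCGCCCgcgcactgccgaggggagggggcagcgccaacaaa
Col3a1 (chr1:45311288-45311587, plus strand): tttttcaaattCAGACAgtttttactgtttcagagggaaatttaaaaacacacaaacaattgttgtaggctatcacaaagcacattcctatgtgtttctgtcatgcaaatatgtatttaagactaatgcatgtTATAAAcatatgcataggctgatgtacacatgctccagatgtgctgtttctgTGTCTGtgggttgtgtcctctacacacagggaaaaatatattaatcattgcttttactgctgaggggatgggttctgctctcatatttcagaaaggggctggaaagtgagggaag
Col15a1 (chr4:47207762-47208061, plus strand): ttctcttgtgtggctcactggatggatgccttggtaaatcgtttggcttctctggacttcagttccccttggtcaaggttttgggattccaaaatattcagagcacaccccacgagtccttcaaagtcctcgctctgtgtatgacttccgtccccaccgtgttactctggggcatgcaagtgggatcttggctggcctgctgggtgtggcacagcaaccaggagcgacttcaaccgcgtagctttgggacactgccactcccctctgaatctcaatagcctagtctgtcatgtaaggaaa
The Col4a1 window held CCAAT and GGGCGG, both as the reverse complement. The Col3a1 window held TATAAA and, on each strand, CAGACA, while the Col15a1 window held none of the 5 motifs. GGGCGG stood in 23 of the 38 collagen windows (60.5%), against 35.7% of all 32851 mouse windows. CCAAT stood in 34.2% of the collagen windows, against 37.4% of all, TATAAA in 13.2% against 13.6%, TGACTCA in 2.63% against 5.20% and CAGACA in 23.7% against 21.04%. A match is only a run of letters and says nothing of whether a factor binds there.

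No collagen gene passed the test between NEC and control. By edgeR's quasi-likelihood test with Benjamini-Hochberg adjustment over 19176 genes, 0 of the 41 tested members had an adjusted p below 0.05, where 0.704% of all genes tested did. Without adjustment, p was below 0.05 for 2 members, Col15a1 and Col7a1, while 15.6% of all genes were below it. DESeq2 called 1 member, Col15a1, and 7.59% of all genes. The NEC and control libraries did not overlap for 2 members, Col15a1 (NEC lower) and Col23a1 (NEC higher), against 22.4% of all genes. All these shares of members lay below those of all genes. The log2 fold change, NEC over control, was above 0 for 27 members and below 0 for 14, with a median of 0.18, where the median over all genes was 0.03. Its standard error had a median of 0.55, and the 95% interval held 0 for 39 of the 41. The interval lay within a doubling or a halving for only 3, Col1a2, Col4a1 and Col4a2, so for the others differences of that size were not excluded at this replication.

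**Figure D1:**
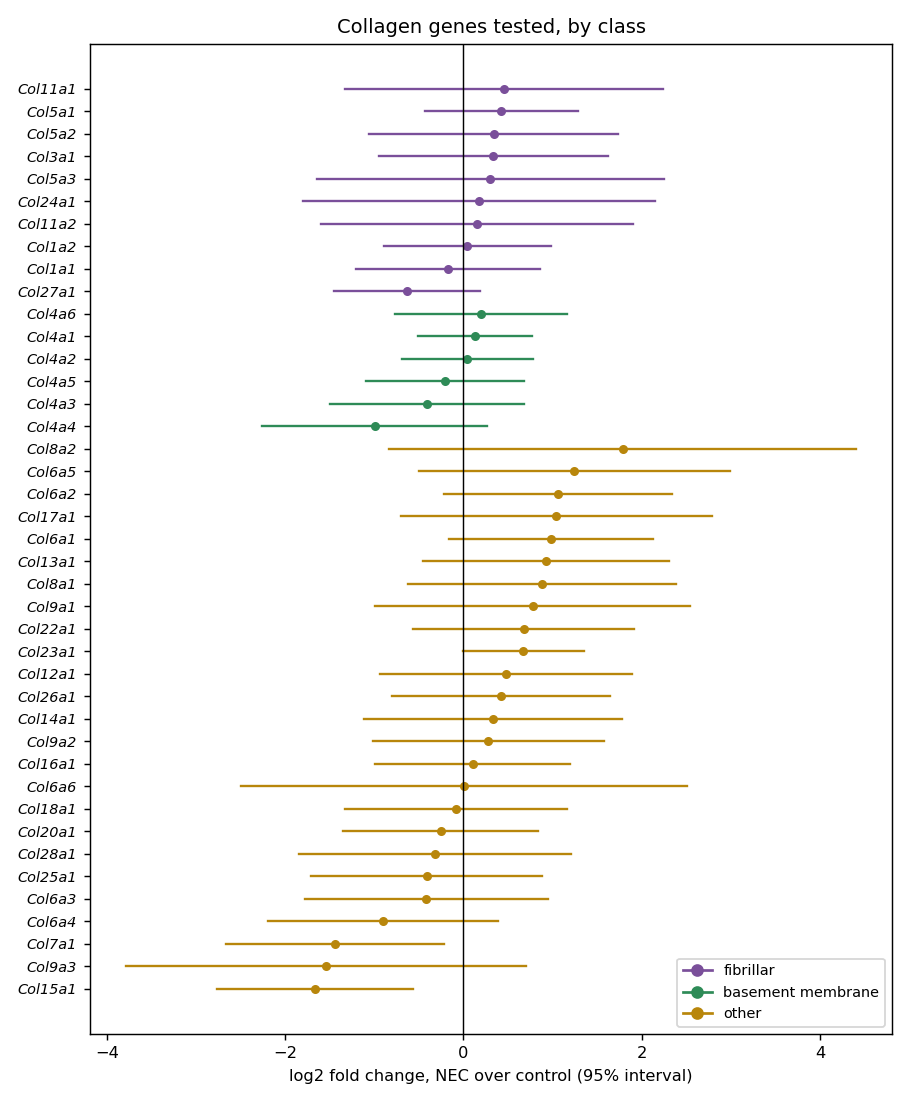
Log2 fold change, NEC over control, of the 41 tested collagen genes with its 95% interval, grouped by class and sorted within it. Only the intervals of Col15a1 and Col7a1, both on the left, leave out 0.

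Summed collagen mRNA varied more among NEC than among control libraries, through NEC replicate 2 and its fibrillar chains; for basement membrane chains the SD was 38.7 in NEC and 61.9 in control, and for other chains 104 in NEC and 118 in control. CPM (counts scaled to a common library size by TMM) summed over the 44 genes to 1010, 2101 and 871 in NEC, against 1046, 1184 and 1305 in control. NEC replicate 2 stood highest of all 6 and the other NEC libraries lowest, so the groups overlapped. The ratio of means was 1.13, and 0.798 without NEC replicate 2. That library was the highest of the NEC libraries for 27 of the 41 tested members, where it was the highest for 36.9% of all genes. Its excess lay mostly in fibrillar chains: the fibrillar share of collagen mRNA was 43.7%, 69.8% and 54.5% in NEC, against 58.5%, 71.0% and 48.4% in control. Control replicate 2 had the highest such share, with no excess in the sum.

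**Figure D2:**
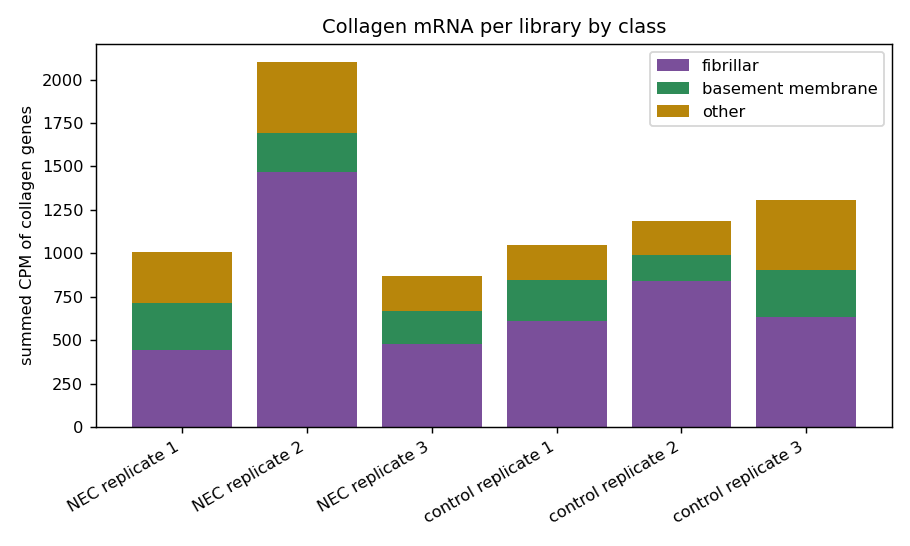
Summed CPM of the 44 collagen genes in each library, stacked by class, with the 3 NEC libraries left of the 3 control libraries. NEC replicate 2 reaches 2101 CPM, 1466 of it fibrillar, while the other 5 libraries lie between 871 and 1305.

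Most, but not all, fibroblast and smooth muscle markers were also high in NEC replicate 2. It had the highest value of all 6 libraries for 10 of 12 fibroblast markers and 6 of 10 smooth muscle markers. The same held for 5 of 5 mesothelium, 3 of 8 endothelium and 0 of 6 pericyte markers. The share of all genes highest in that library among all 6 was not computed. The 12 fibroblast markers summed to 223, 402 and 201 CPM in NEC, against 302, 232 and 327 CPM in control. Fbln1, a matrix protein of fibroblasts, went the other way, with 61.4, 37.6 and 54.1 CPM in NEC, lowest in NEC replicate 2, against 94.6, 41.6 and 145 CPM in control. Pdgfra, a receptor of intestinal fibroblasts, had 46.8, 65.5 and 40.3 CPM in NEC, against 24.4, 26.6 and 40.4 CPM in control, and Mfap5, of matrix microfibrils, had 2.04, 17.6 and 1.38 CPM in NEC, against 2.11, 3.91 and 1.89 CPM in control. The 10 smooth muscle markers summed to 1191, 3613 and 2240 CPM in NEC, against 2763, 2142 and 1304 CPM in control. Acta2, smooth muscle actin, had 262, 847 and 623 CPM in NEC, against 446, 378 and 205 CPM in control, while Smtn, smoothelin, had 17.8, 19.5 and 20.5 CPM in NEC, all below the 26.7, 22.9 and 26.1 CPM in control. Des, desmin, had 52.6, 105 and 74.5 CPM in NEC, against 164, 119 and 73.5 CPM in control. The 5 mesothelium markers summed to 264, 539 and 472 CPM in NEC, against 112, 191 and 128 CPM in control, most of it Krt19, a keratin that intestinal epithelium also makes. Among them Upk3b, of the mesothelial surface, had 1.47, 26.1 and 2.17 CPM in NEC, against 4.66, 6.21 and 1.06 CPM in control. By edgeR 0 of the 12 fibroblast, 0 of the 10 smooth muscle and 0 of the 5 mesothelium markers were called, with 1, 0 and 2 at an unadjusted p below 0.05, and DESeq2 called 1, Krt19. The part of cell composition in the collagen values was not tested. Cartilage and bone markers Acan, Bglap, Comp and Matn1 were too low to test, and the other 4 skeletal muscle and cartilage markers listed had 0 calls; too low also were the cartilage collagens Col2a1 and Col10a1.

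Among fibrillar chains, Col3a1 led. It encodes the single chain of type III collagen, which forms fine fibres with type I in gut wall and vessels. Per kb of the union of exons its level over all 6 libraries averaged 39.9 CPM, followed by 14.5 for Col1a2 and 12.8 for Col1a1, the 2 chains of type I, and then 3.95 and 3.77 for Col5a2 and Col5a1 of type V, which regulates fibril diameter. Col1a2 has a long exon union, and per kb of its longest coding transcript it stood at 33.7 CPM. Col3a1 (ENSMUSG00000026043, chromosome 1, 45311538 to 45349706, plus strand, GENCODE M21 on mm10) had 200.4, 862 and 248 CPM in NEC, against 328, 443 and 267 CPM in control. NEC replicate 2 lay above all controls and the other 2 NEC libraries below all of them. The log2 fold change was 0.34 ± 0.55 (SE; 95% interval -0.95 to 1.62; edgeR adjusted p = 0.832), and -0.64 without NEC replicate 2. Within AG181017 the difference was 0.53, and between the AG181028 pair -0.42.

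Both chains of type I had their NEC libraries placed around the controls as Col3a1 did. Col1a1 had 56.96, 137 and 42.2 CPM in NEC, against 66.5, 93.8 and 107 CPM in control (log2 fold change -0.18 ± 0.45, edgeR adjusted p = 0.905). Col1a2 had 122, 304 and 123 CPM in NEC, against 139, 219 and 175 CPM in control (0.04 ± 0.40, edgeR adjusted p = 0.979). For both genes NEC replicates 1 and 3 lay below every control library and NEC replicate 2 above every one. Neither sign was stable: for Col1a1 it was positive without NEC replicate 1 (0.01) or NEC replicate 3 (0.13), and for Col1a2 negative without NEC replicate 2 (-0.54) or control replicate 1 (-0.11). The AG181017 samples and the AG181028 pair differed in sign for both, with 0.16 and -0.91 for Col1a1 and 0.25 and -0.52 for Col1a2. Col5a2, chosen after its values were seen, had 16.9, 87.4 and 22.8 CPM in NEC, against 35.6, 41.5 and 23.4 CPM in control, again highest in NEC replicate 2. Its log2 fold change was 0.34, and -0.76 without that library.

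Chains of cartilage-type fibrillar collagens were low. Col27a1, of a fibrillar collagen known from cartilage, had 6.73, 14.0 and 10.3 CPM in NEC, against 19.9, 16.5 and 11.9 CPM in control. It was the fibrillar chain with the most negative fold change, -0.63 ± 0.35 (edgeR adjusted p = 0.441). Col11a1 had 0.29, 2.02 and 0.52 CPM in NEC, against 0.76, 0.89 and 0.42 CPM in control, and its fold change of 0.45 ± 0.77 (edgeR adjusted p = 0.839) was -0.78 without NEC replicate 2. The remaining fibrillar members, Col5a1, Col5a3, Col11a2 and Col24a1, had log2 fold changes between 0.15 and 0.42.

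Over the 10 fibrillar chains tested, the median log2 fold change was 0.24, with 8 above 0 and 2 below. NEC replicate 2 was the highest NEC library for 8 of the 10, and without it the median was -0.68. Summed fibrillar CPM were 441, 1466 and 475 in NEC, against 612, 841 and 631 in control. The ratio of means was 1.14, and 0.660 without NEC replicate 2. Within sample code AG181017 the median was 0.52, while NEC replicate 1 over control replicate 3, the single AG181028 pair, gave -0.44. Only 1 of the 10 kept its sign between the 2 codes, where 66.9% of all genes did. Of the type IV chains 4 of 6 kept it, and of the other chains 15 of 25. The chains share the same libraries, NEC replicate 2 among them, so they are not separate observations.

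**Figure D3:**
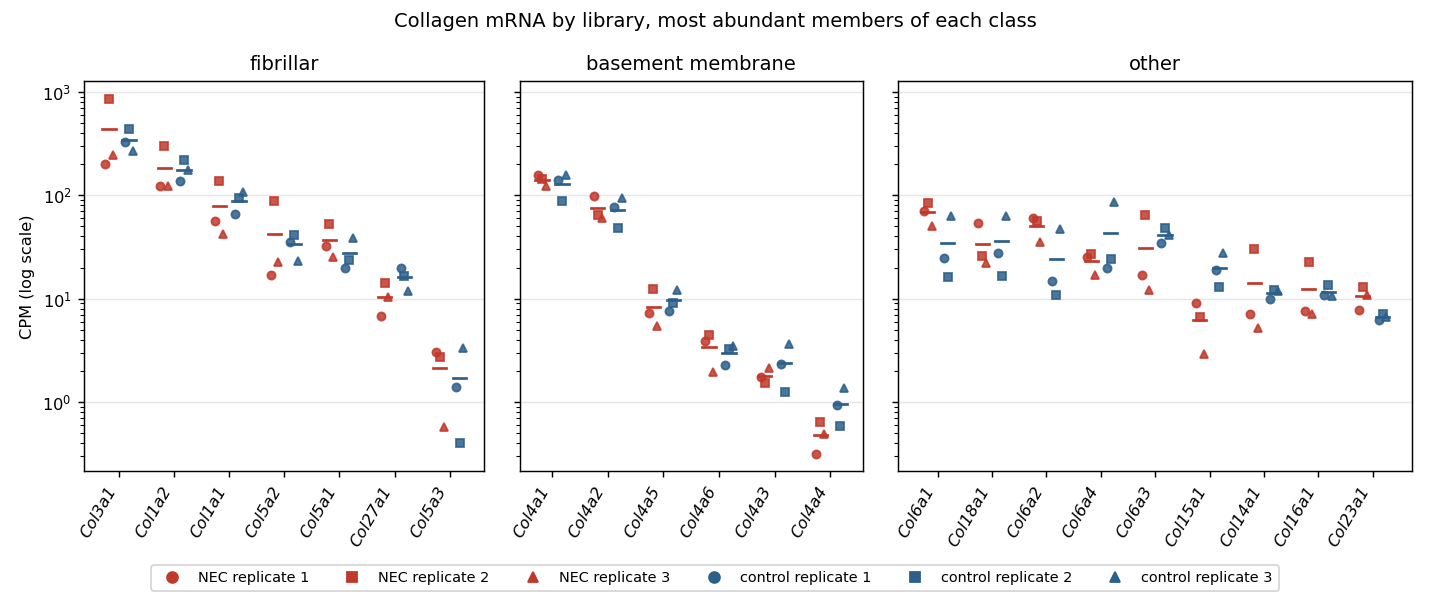
CPM (log scale) of the more abundant fibrillar, basement membrane and other collagen genes in each of the 3 NEC (red, left of each pair) and 3 control libraries (blue), with group means as bars. NEC replicate 2 (red square) tops Col3a1, Col1a2, Col1a1 and Col5a2. Over all libraries, but not among the controls alone, Col4a1 and Col4a2 vary less than these. Col15a1 is lower in every NEC library.

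Of type IV collagen, Col4a1 and Col4a2 varied less across all libraries than Col3a1, Col1a1 and Col1a2. Relative to the mean, this did not hold among the control libraries alone. There mean and SD were 130 and 36.7 CPM for Col4a1 and 72.8 and 22.7 CPM for Col4a2. They were 346 and 89.2 CPM for Col3a1, 89.1 and 20.6 CPM for Col1a1 and 178 and 40.1 CPM for Col1a2. The less abundant type IV chains, given further below, varied more than Col4a1 and Col4a2. Col4a1 (chromosome 8, 11198423 to 11312826, minus strand) had 159, 143 and 124 CPM in NEC, against 142, 88.4 and 159 CPM in control. Col4a2 (chromosome 8, 11312805 to 11449287, plus strand) had 99.4, 64.8 and 60.9 CPM in NEC, against 76.5, 48.5 and 93.5 CPM in control. The groups overlapped, with log2 fold changes of 0.13 ± 0.27 (95% interval -0.51 to 0.77, edgeR adjusted p = 0.882) for Col4a1 and 0.04 ± 0.32 (-0.69 to 0.78, edgeR adjusted p = 0.973) for Col4a2. Both turned negative without control replicate 2, to -0.09 and -0.18, and that of Col4a2 was also negative, -0.21, without NEC replicate 1. The counting is not stated to use strand, so counts in the 22 bases that the genes share cannot be assigned to one of them.

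The tissue-restricted type IV chains were much lower, as their levels per kb show. Col4a5, X-linked and part of kidney and smooth muscle basement membranes, averaged 1.34 CPM per kb, against 18.2 for Col4a1. It had 7.22, 12.4 and 5.42 CPM in NEC, against 7.58, 9.14 and 12.2 CPM in control (log2 fold change -0.21, edgeR adjusted p = 0.854, and 0.03 without NEC replicate 3), with 0.09 within AG181017 and -0.75 between the AG181028 pair. Col4a3 had 1.75, 1.52 and 2.13 CPM in NEC, against 2.33, 1.24 and 3.62 CPM in control (-0.41, edgeR adjusted p = 0.735, and 0.00 without control replicate 3). Col4a4 had 0.31, 0.64 and 0.49 CPM in NEC, against 0.94, 0.59 and 1.35 CPM in control (-0.99 ± 0.55, edgeR adjusted p = 0.431). Col4a4 NEC libraries lay at the lower end, overlapping only with control replicate 2. Col4a6 had a log2 fold change of 0.19. The median of the 6 was -0.08, and summed type IV CPM were 272, 227 and 195 in NEC, against 232, 151 and 273 in control. The fibrillar sum was 1.62, 6.47 and 2.44 times the type IV sum in NEC, against 2.64, 5.56 and 2.31 times in control. Replicate 2 was high in both groups, and its number is not known to link the 2 samples.

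Of the other collagens, Col15a1 had the smallest p. Type XV is a proteoglycan collagen of the basement membrane zone of vessels and muscle and, like type XVIII, carries an endostatin-like end. Col15a1 (ENSMUSG00000028339, chromosome 4, 47208161 to 47313167, plus strand) had 8.997, 6.70 and 2.93 CPM in NEC, against 18.7, 12.9 and 27.5 CPM in control. The highest NEC library was under the lowest control library. The log2 fold change was -1.66 ± 0.47 (95% interval -2.76 to -0.57; edgeR adjusted p = 0.155), so it did not pass the test, and DESeq2 gave an adjusted p of 0.0176. It stayed between -2.03 and -1.32 when any 1 library was left out, with edgeR adjusted p of 0.164 to 0.408. The difference in log2 of mean CPM was -1.69 within AG181017 and -1.60 between the AG181028 pair. All 3 NEC libraries were below control replicate 3, the control library like them in Xist and Uty. That library was also the highest control, and the part of sex in these values was not tested. An antisense transcript, Gm12426, overlaps exons of Col15a1, and counts of the 2 cannot be told apart without strand.

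Markers of vessels were measured beside it, because type XV lies around vessels. The 8 endothelium markers summed to 164, 159 and 141 CPM in NEC, against 111, 79.7 and 154 CPM in control. Lyve1, a hyaluronan receptor of lymphatic endothelium that some macrophages also carry, rose in NEC, with 29.3, 42.5 and 56.6 CPM, against 5.996, 6.12 and 8.41 CPM in control (log2 fold change 2.64 ± 0.33, edgeR adjusted p = 0.0307). It was the only called marker of the 8, where 0.704% of all genes were called. That call was lost without NEC replicate 3 and without each single control library. Cdh5, of endothelial junctions, had 16.3, 11 and 7.38 CPM in NEC, against 17.7, 10.8 and 19.9 CPM in control, and Prox1, of lymphatic vessels, 4.23, 6.83 and 4.70 CPM in NEC, against 3.16, 4.18 and 2.80 CPM in control. Pericyte markers had 0 of 6 called by edgeR and 1 by DESeq2, which called 7.59% of all genes. The 6 pericyte markers summed to 120, 183 and 114 CPM in NEC, against 216, 128 and 161 CPM in control. Of these, Kcnj8 had 18.4, 28.2 and 33.3 CPM in NEC, against 15.7, 12.0 and 9.97 CPM in control (1.09, edgeR adjusted p = 0.161), while Rgs5 and Cspg4 had log2 fold changes of -0.63 and -0.56. These markers had values in both directions, and their part in its values was not tested.

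Col7a1 (chromosome 9, 108953586 to 108984875, plus strand) encodes type VII, the collagen of anchoring fibrils under squamous epithelium. It had 2.01, 1.38 and 2.57 CPM in NEC, against 6.02, 2.18 and 7.97 CPM in control. The groups overlapped through control replicate 2. The log2 fold change was -1.44 ± 0.52 (edgeR adjusted p = 0.250), with -1.02 within AG181017 and -1.93 between the AG181028 pair. Col18a1, of the same family as Col15a1, had 53.4, 26.1 and 22.0 CPM in NEC, against 27.8, 16.6 and 63.2 CPM in control. The AG181028 libraries were the highest of each group for Col18a1, and its log2 fold change of -0.09 ± 0.54 (edgeR adjusted p = 0.967) was positive without NEC replicate 2 (0.08), NEC replicate 3 (0.15) or control replicate 3 (0.61).

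Type VI collagen, which forms beaded filaments around cells, is built from an α1, an α2 and 1 further chain, either α3 or 1 of the α4 to α6 chains. Col6a1 (chromosome 10, 76708792 to 76726168, minus strand) had 70.9, 84.6 and 50.1 CPM in NEC, against 24.98, 16.3 and 62.8 CPM in control. Col6a2, its neighbour (chromosome 10, 76595762 to 76623630, minus strand), had 60.6, 56.8 and 35.2 CPM in NEC, against 14.9, 10.8 and 47.3 CPM in control. In both genes control replicates 1 and 2 lay below all NEC libraries, while control replicate 3 lay within the NEC range. Control replicate 3 was also the control library that resembled NEC in Xist and Uty. The part of sex in these values, and in those of Col6a5 below, was not tested. The log2 fold changes were 0.98 ± 0.49 for Col6a1 (edgeR adjusted p = 0.390) and 1.06 ± 0.55 for Col6a2 (edgeR adjusted p = 0.406). Both rested in size on control replicates 2 and 3: without control replicate 3 they were 1.73 and 1.98, and without control replicate 2 they were 0.64 and 0.71. Within AG181017 the differences were 1.70 and 1.83, and between the AG181028 pair 0.17 and 0.35.

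Col6a5 had the same arrangement of libraries, whereas Col6a3 and Col6a4 did not. The following type VI and type XXIII chains were chosen after their values were seen. Col6a3 had 16.9, 64.1 and 12.0 CPM in NEC, against 34.3, 48.5 and 41.3 CPM in control, with NEC replicate 2 highest and the other NEC libraries below all controls (log2 fold change -0.42 ± 0.59, edgeR adjusted p = 0.796). Without NEC replicate 2 it was -1.52 (edgeR adjusted p = 0.0947). Col6a5 had 8.91, 20.2 and 9.50 CPM in NEC, against 1.29, 3.35 and 11.6 CPM in control (1.24 ± 0.75, edgeR adjusted p = 0.482). Control replicates 1 and 2 lay below all NEC libraries and control replicate 3 within their range, and the difference was 2.63 within AG181017 and -0.38 between the AG181028 pair. Col6a4, whose human counterpart is broken, had 25.3, 27.3 and 16.9 CPM in NEC, against 19.9, 24.3 and 85.8 CPM in control. Control replicate 3 alone stood high for Col6a4, and without it the log2 fold change of -0.90 was 0.06. The AG181028 pair, which holds that library, gave -1.76. Col6a6 was under 1 CPM in every library.

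Ratios of chains within a library do not depend on how libraries are scaled. Per kb of exon, Col6a1 stood at 11.4, 3.61 and 11.4 times Col6a3 in NEC, against 1.99, 0.920 and 4.15 times in control. Control replicate 3 exceeded NEC replicate 2, so the groups overlapped. The ratio of means, NEC over control, was 3.74, and from 2.87 to 6.05 when 1 library was left out. Col6a1 was 2.23, 2.83 and 2.71 times Col6a2 in NEC, against 3.18, 2.86 and 2.52 times in control. Col4a1 was 1.42, 1.95 and 1.80 times Col4a2 in NEC, against 1.65, 1.61 and 1.504 times in control. Col1a1 was 0.882, 0.857 and 0.648 times Col1a2 in NEC, against 0.906, 0.811 and 1.16 times in control. Col5a1 was 2.13, 0.684 and 1.25 times Col5a2 in NEC, against 0.629, 0.646 and 1.87 times in control. The size of a ratio depends on the length used: by the longest coding transcript Col1a1 was 0.420, 0.408 and 0.309 times Col1a2 in NEC, against 0.431, 0.386 and 0.551 times in control, and Col6a1 was 1.33, 1.69 and 1.62 times Col6a2 in NEC, against 1.90, 1.71 and 1.51 times in control. The ratio of NEC to control does not change with length. The groups overlapped in all 5 ratios, and with 3 samples against 3 an exact two-sided permutation test cannot go below p = 0.1.

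**Figure D4:**
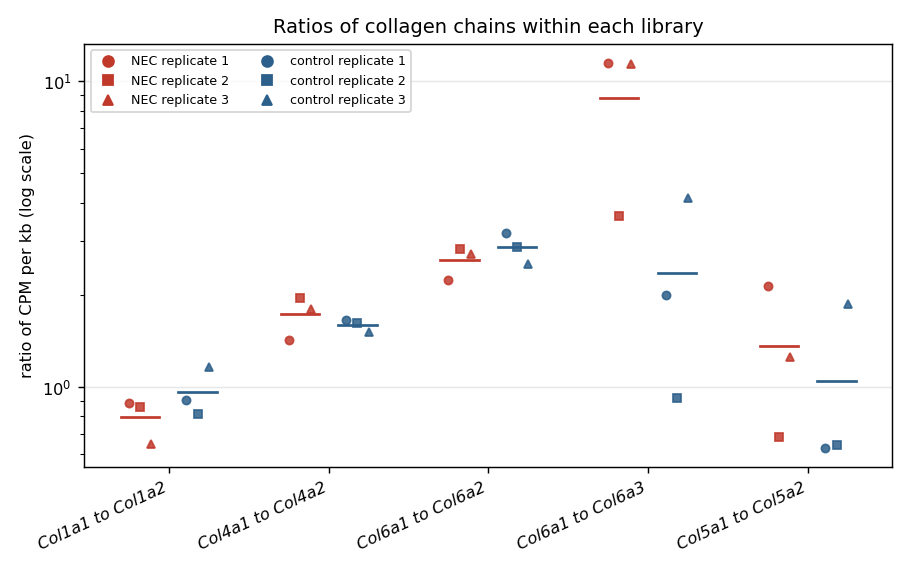
Ratio of CPM per kb (log scale) between chains of the same collagen type in each of the 3 NEC (red, left) and 3 control libraries (blue), with group means as bars. The ratios of types I, IV and VI α1 to α2 stay within a narrow band, while Col6a1 to Col6a3 runs from 0.920 to 11.4 and the groups overlap.

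The transmembrane collagens, single-pass proteins shed from the cell surface, were low, and their sum is given as a description, with 15.5, 18.4 and 18.3 CPM in NEC, against 9.61, 8.63 and 13.3 CPM in control. This set is Col13a1, Col17a1, Col23a1 and Col25a1, and it was singled out after the values were seen, so no test is given. Of the 4, 0 were called and 0 had an unadjusted p below 0.05. Col13a1, Col17a1 and Col25a1 overlapped between the groups, and Col25a1 had a log2 fold change of -0.41. Col23a1 (chromosome 11, 51289920 to 51583918, plus strand) had 7.79, 12.9 and 10.9 CPM in NEC, against 6.16, 7.08 and 6.60 CPM in control. All NEC libraries lay above all controls, with a log2 fold change of 0.67 ± 0.29 (edgeR adjusted p = 0.326). With the offset for G and C content described below, the groups overlapped. Col23a1 then had 7.07 CPM in NEC replicate 1 and 7.97 CPM in control replicate 2. Col8a2, a network-forming chain, had the most positive fold change of all members, 1.79 ± 1.13 (edgeR adjusted p = 0.502), which rested on NEC replicate 2: it had 0.26, 2.88 and 0.17 CPM in NEC, against 0.45, 0.40 and 0.11 CPM in control. Without that library it was -0.55. Over the 25 other members tested, the median was 0.33, with 16 above 0 and 9 below, and -0.25 without NEC replicate 2.

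Genes that mature collagen did not pass the test. Of 34 listed, 32 were tested and 0 were called, with a median log2 fold change of 0.32. At an unadjusted p below 0.05 there were 2, both higher in NEC, where 15.6% of all genes were below it. DESeq2 called 1, Lox, and 7.59% of all genes. Lox, which starts crosslinking by oxidising lysines, had 9.65, 24.7 and 14.3 CPM in NEC, against 5.68, 7.38 and 3.80 CPM in control (log2 fold change 1.53 ± 0.43, edgeR adjusted p = 0.150). P3h4, a partner of lysyl hydroxylation, had 5.67, 14.9 and 9.20 CPM in NEC, against 4.51, 5.65 and 4.15 CPM in control (1.06, edgeR adjusted p = 0.263). For both, every NEC library lay above every control. The prolyl hydroxylase P3h1 had 4.16, 5.91 and 2.54 CPM in NEC, against 1.09, 0.88 and 3.18 CPM in control (edgeR adjusted p = 0.348).

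Among genes that break matrix down or inhibit its breakdown, 1 of 17 tested was called higher and 0 lower, where 0.261% of all genes were called higher. DESeq2 called 6 of the 17, where it called 7.59% of all genes. The 6 were Mmp7, Timp1, Timp4, Mmp2 and Ctsk as higher and Mmp13 as lower. At an unadjusted p below 0.05 there were 6 higher and 1 lower, against 7.61% of all genes higher and 7.99% lower. Mmp7, matrilysin, a protease secreted by Paneth cells and other epithelium that has little activity on intact fibrils, rose to 12.7, 20.97 and 58.8 CPM in NEC, against 1.92, 0.83 and 1.54 CPM in control. Its log2 fold change was 4.42 ± 0.67 (edgeR adjusted p = 0.0419), and leaving out any 1 library gave 3.55 to 4.79, with edgeR adjusted p of 0.0509 to 0.222, so that the call was lost without each of the 6 in turn. Timp1, an inhibitor of matrix metalloproteinases, had 4.51, 4.54 and 8.74 CPM in NEC, against 1.008, 1.22 and 0.64 CPM in control (2.63 ± 0.45, edgeR adjusted p = 0.0527). It passed 0.05 under 6 of the other settings, with an adjusted p of 0.0311 by edgeR without a low-count filter, 0.0351 by edgeR with the sample code as a term and 8.69e-07 by DESeq2, and in no fit with 1 library left out. Timp4 had 2.24, 0.59 and 0.93 CPM in NEC, against 0, 0.06 and 0.11 CPM in control (edgeR adjusted p = 0.114). All 3 were higher in every NEC library.

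A further 4 breakdown genes had an unadjusted p below 0.05 with groups that did not overlap, and they were chosen after their values were seen. Mmp2, gelatinase A, had 21.2, 56.9 and 36.4 CPM in NEC, against 9.51, 14.7 and 16.1 CPM in control (log2 fold change 1.51, edgeR adjusted p = 0.135). Ctsk, cathepsin K, had 5.54, 17.3 and 12.8 CPM in NEC, against 4.66, 4.93 and 4.65 CPM in control (1.33, edgeR adjusted p = 0.202). The matrix-bound inhibitor Timp3 had 272, 185 and 183 CPM in NEC, against 127, 136 and 116 CPM in control (0.75, edgeR adjusted p = 0.206). The collagenase Mmp13 was the 1 lower in NEC, with 0.46, 1.53 and 0.73 CPM, against 3.09, 2.76 and 3.94 CPM in control (-1.84, edgeR adjusted p = 0.153).

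**Figure D5:**
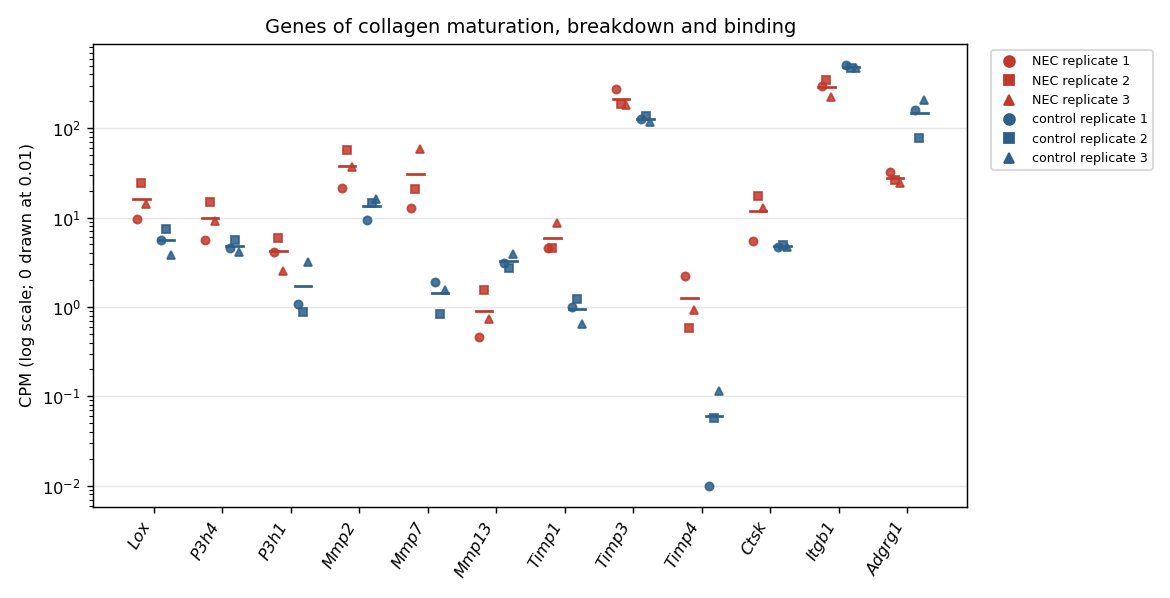
CPM (log scale, 0 drawn at 0.01) of genes for collagen maturation, breakdown and binding in the 3 NEC (red, left) and 3 control libraries (blue), with group means as bars. Mmp7 is higher and Adgrg1 lower in every NEC library. The groups of P3h1 overlap and those of the others drawn do not. The genes drawn were chosen by small p or after their values were seen. Over the full lists the groups did not overlap for 4 of 32 maturation, 7 of 17 breakdown and 3 of 10 receptor genes. Over all genes tested the share was 22.4%.

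Collagen receptors included 1 called gene of 10 tested, lower in NEC, where 0.443% of all genes were called lower. Adgrg1 encodes an adhesion G protein-coupled receptor for which type III collagen is a known ligand in mouse brain. It fell to 32.5, 26.0 and 24.2 CPM in NEC, against 158, 78.7 and 206 CPM in control (log2 fold change -2.42 ± 0.37, edgeR adjusted p = 0.0428). Every NEC library lay below every control. The fold change was -2.72 to -2.10 with 1 library left out, and the edgeR adjusted p, 0.0246 to 0.225, stayed below 0.05 only without control replicate 2. Itgb1, the β1 integrin chain shared by the collagen-binding integrins, had 294, 349 and 223 CPM in NEC, against 509, 474 and 471 CPM in control (-0.75 ± 0.25, edgeR adjusted p = 0.213). Itga10, a collagen-binding α chain, was near 1 CPM or below in all libraries. Summed over the list, the receptors had 457, 517 and 336 CPM in NEC, against 812, 671 and 818 CPM in control, most of it Itgb1 and Adgrg1.

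Matrix partners of collagen and genes of transforming growth factor-β (TGF-β) signalling, a known inducer of collagen genes, had 0 called members of 15 tested in each list, by edgeR and by DESeq2. At an unadjusted p below 0.05 there was 1 matrix gene, higher in NEC, and 1 higher and 3 lower genes of the TGF-β list. Of all genes 7.61% were higher and 7.99% lower at that threshold. Median log2 fold changes of the matrix and TGF-β lists were 0.28 and 0.07. Dcn, decorin, which binds collagen fibrils, had 33.2, 388 and 96.2 CPM in NEC, against 54.3, 88.7 and 40.6 CPM in control, and was highest in NEC replicate 2. Thbs1, a matrix protein that binds TGF-β, had 58.8, 37.5 and 41.8 CPM in NEC, against 23.4, 27.1 and 30.7 CPM in control, without overlap (0.77, edgeR adjusted p = 0.214). Tgfbr2, a TGF-β receptor, had 158, 81.3 and 77.9 CPM in NEC, against 58.9, 50.1 and 68.6 CPM in control (0.84, edgeR adjusted p = 0.276). Smad3, its transcription factor, had 34.2, 30.9 and 27.4 CPM in NEC, against 43.7, 43.7 and 49.1 CPM in control (-0.56, edgeR adjusted p = 0.259), and Ltbp2, a relative of the TGF-β binding proteins, 1.11, 2.36 and 0.89 CPM in NEC, against 3.77, 4.05 and 3.35 CPM in control (-1.35, edgeR adjusted p = 0.220).

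Markers of leukocytes, a source of proteases, included 0 called of 9 tested by edgeR, 4 at an unadjusted p below 0.05 and 4 called by DESeq2. Over all genes these shares were 0.704%, 15.6% and 7.59%. The leukocyte markers summed to 180, 261 and 161 CPM in NEC, against 362, 276 and 300 CPM in control. Single members went both ways: Csf1r, of macrophages, had 135, 149 and 105 CPM in NEC, against 319, 245 and 272 CPM in control (-1.10, edgeR adjusted p = 0.0919), while Cd68 had 26.8, 25.9 and 26.8 CPM in NEC, against 11.6, 12.5 and 7.90 CPM in control (1.31, edgeR adjusted p = 0.0773). S100a8, of neutrophils, had 1.42, 11.7 and 2.99 CPM in NEC, against 0, 0.24 and 0.18 CPM in control (edgeR adjusted p = 0.110). Epithelium (8 tested), intestine identity (8) and enteric glia (6) markers had 0 called by edgeR, with 0, 0 and 1 at an unadjusted p below 0.05, and DESeq2 called 1 of them, S100b. S100b, of glia, had 0.23, 1.84 and 0.78 CPM in NEC, against 4.14, 3.43 and 7.39 CPM in control (edgeR adjusted p = 0.182).

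Base composition differed between libraries and touched collagen genes, whose longest coding transcripts held 45.9% to 62.9% G and C. Among all genes with over 60% G and C, the median deviation of log2 CPM from the mean of all libraries was 0.43, -0.32 and 0.08 in NEC, against -0.01, -0.52 and 0.40 in control. Across the 41 tested collagen genes, the Spearman correlation of this deviation with G and C content was 0.23, -0.39 and 0.17 in NEC, against 0.04, -0.28 and 0.22 in control. The points of each correlation share a library, and no p is given. In replicate 2 of each group, chains richer in G and C thus tended towards lower deviations. This did not hold for each chain: Col1a1, with 58.9% G and C, was highest in NEC replicate 2. An offset for G and C content in each library, chosen after seeing the data, left 0 members called. It gave medians of 0.15 for all members, 0.23 for fibrillar, -0.12 for type IV and 0.29 for other chains, and log2 fold changes of -1.67 for Col15a1 and 1.05 for Col6a1.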

How the data were processed

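Whole-number gene counts for 6 intestine RNA samples were deposited by the authors as 1 table. The genome build is mm10 per the submitters' processing notes; aligner, counter and strand setting: not given in the sources used here. Reads were 150 bp pairs per the labels' protocols. Counts at multiples of 4 were 1.97 times as frequent as neighbouring values from 8 to 40, so totals may overstate the number of fragments.

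Identifiers were matched to GENCODE M21, and 54409 of 54446 had a symbol. The test was that of edgeR 4.0.16 under R 4.3.3 (filterByExpr with a minimum count of 10, TMM scaling, quasi-likelihood F test with robust=TRUE), without covariates, with Benjamini-Hochberg adjustment over 19176 genes and calls at an adjusted p below 0.05. CPM are the deposited counts scaled to a common library size by TMM. SE and 95% intervals come from the same fit. Levels per kb use the union of exons. Differences within sample codes use log2(mean CPM + 0.1) of each group. Promoters are RefSeq's. The procedure was tested on simulated data.

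The collagen genes, their classes and the other lists were chosen with earlier results of these data known. Genes were named by rule: called members; members with an unadjusted p below 0.05; the 3 with the highest level per kb and the 2 with the largest absolute log2 fold change in each class; and, in each other list, called genes and the 3 with the smallest p. Exceptions are marked as chosen after their values were seen.

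Alternatives were scaling by RLE, by the upper quartile or by library size alone, other filters on low counts, DESeq2 1.42.0, voom of limma 3.58.1, the replicate number as a block, the sample code as a term, the AG181017 samples alone, counts divided by 4, collagens of the basement membrane zone moved to the basement membrane class, each library left out, and the G and C offset (lowess span 0.3). Libraries differed from each other by far more than sampling noise.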

Additional observations from a re-analysis of the deposited data

How the results depend on the processing

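The count of called collagen genes was 0 under edgeR with every scaling, filter, covariate and left-out library tried, as it was under limma-voom, and 1 under DESeq2. Of 416 values of the 22 collagen genes named with fold changes, over 19 other settings, 386 kept their direction and side of the threshold, 29 reversed and 1, Col15a1 under DESeq2 (-1.65), passed it. With 1 library left out, the median log2 fold change ran from -0.32 to 0.45 over all members, -0.68 to 0.62 over fibrillar, -0.21 to 0.13 over type IV and -0.25 to 0.69 over other chains, the lowest value for all members, for fibrillar and for other chains being without NEC replicate 2.

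Reversed values were close to 0 in the remaining settings. With the AG181017 samples only, Col4a2 had -0.015, Col4a3 0.0061, Col4a5 0.073, Col1a1 0.15 and Col18a1 0.091. Limma-voom gave -0.074 for Col1a2 and 0.00637 for Col18a1, the sample code term gave -0.00159 for Col1a2, and the G and C offset -0.000455 for Col4a2. With 1 library left out, the lowest and highest values were -0.086 and 0.29 for Col4a1, -0.21 and 0.26 for Col4a2, -0.73 and 0.0040 for Col4a3, -0.61 and 0.028 for Col4a5, -0.78 and 0.88 for Col11a1, -0.85 and 0.13 for Col1a1, -0.54 and 0.26 for Col1a2, -0.64 and 0.68 for Col3a1, -0.76 and 0.72 for Col5a2, -0.58 and 0.61 for Col18a1, -1.25 and 0.064 for Col6a4, -0.55 and 2.29 for Col8a2, -0.62 and 1.90 for Mfap5 and -1.14 and 1.83 for Upk3b.

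The replicate numbers are not known to pair the samples. Deviations from the group mean correlated at -0.14, 0.27 and -0.01 between same-numbered samples. With 3 samples a group these deviations depend on each other, so they cannot settle whether the numbers pair samples. The highest correlation, 0.358, was that of NEC replicate 1 with control replicate 3, the AG181028 pair. With the sample code as a term 0 collagen genes were called, 6 had an unadjusted p below 0.05 against 2 without it, and Col15a1 had an edgeR adjusted p of 0.0721. With the number as a replicate block, 0 collagen genes were called, Col15a1 had -1.71 (edgeR adjusted p = 0.219), and Col1a2 (-0.074), Col5a2 (-0.011) and Col18a1 (0.057) reversed.

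With 1 library left out, the log2 fold change was 0.64 to 1.73 for Col6a1, 0.71 to 1.98 for Col6a2 and 0.75 to 2.46 for Col6a5. Of the 89 maturation, breakdown, receptor, matrix and TGF-β genes tested, 2 were called, against 8 under DESeq2 and 1 under limma-voom. The count was 0 with the replicate block, 0 with the AG181017 samples only and 0 to 1 with a library left out. Of the 72 cell type markers tested 1 was called, against 8 under DESeq2 and 0 to 1 with a library left out. Of all genes, edgeR called 0.704% and DESeq2 7.59%. Over all genes, 135 calls compare with 1452 under DESeq2, 54 with the block, 25 with the AG181017 samples only, 243 with the sample code term, 217 with the G and C offset and 247 with no low-count filter, and with 34 and 3 without NEC replicates 1 and 3, and 0 and 25 without control replicates 1 and 3. The cause of these differences was not tested, and with 3 samples a group many collagen intervals span more than a doubling.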
